A study of Mus musculus with 12 samples.

Results

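The suppressors of cytokine signaling (SOCS) and the related gene Cish were followed in resting B (RB) cells of the mouse spleen. All 8 genes of the family, Cish and Socs1 to Socs7, were taken by their symbols in the array annotation. None was picked from within the family for its values, but the family was chosen with earlier results of these data known. They were covered by 10 of the 61307 probes of the array, 2 each for Socs4 and Socs6 and 1 for every other gene, and a gene is given by its brightest probe. RNA was measured on 12 one-colour (Cy3) custom Agilent arrays, 2 for each of 6 groups of RB cells. Cells came from spleens of BALB/c mice (female and 6 weeks old by the labels, whereas the methods name male or female mice) and were left after depletion of cells that carry CD43. Every group was cultured for 4 h. The groups were unstimulated cells, cells given the TLR-2 ligand Pam2CSK4, anti-CD86 antibody or both (TLR2.CD86), and cells given anti-CD40 antibody alone or with Pam2CSK4, here named TLR2.CD40. The labels number the arrays of a group 1 and 2 and name no separate animals or cultures, so that p-values measure the spread between these samples.

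SOCS proteins are the classical negative feedback on cytokine receptors that signal through Janus kinases (JAKs) and STAT transcription factors. An SH2 domain binds phosphorylated tyrosines, and a C-terminal SOCS box recruits elongins, a cullin and a RING protein so that the bound target is ubiquitinated. SOCS1 and SOCS3 also carry a short region that blocks JAK activity directly, while CIS, the product of Cish, competes with STAT5 at receptor tails. SOCS2 is best known as a brake on growth hormone signaling. SOCS4 and SOCS5 have been tied to growth factor receptors, and SOCS6 and SOCS7 to insulin receptor signaling. Transcription of Cish, Socs1, Socs2 and Socs3 is a usual response of lymphocytes to cytokines. CD40 belongs to the TNF receptor family and signals mainly through TRAF adaptors, and TLR-2 signals through MyD88.

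The level used throughout is the log2 processed spot intensity from which the 75th percentile of its own array was subtracted, and 46.6% to 60.6% of the spots of an array were well above background. All 10 probes were well above background on all 12 arrays and none was saturated. Slide 1 held 8 arrays, among them both of unstimulated cells and both of TLR2.CD40, whereas the other groups had replicate 1 on slide 1 and replicate 2 on slide 2. With the slide as a term, 18073 of 31596 probes tested differed between slides (5647 higher on slide 2). Each of 9 B cell markers, Cd79a, Cd79b and Ms4a1 among them, exceeded background on all 12 arrays. Most markers of T, myeloid, NK and red cells did so as well, so that this does not check the RB cell label. Mean log2 signals in unstimulated cells were 7.58 for Cd79b, which was saturated on 12 arrays, 6.69 for Ms4a1 and 0.96 for Cd79a. Markers of myeloid cells were also measured well above background, with Mpo at 7.25 and 7.28 and S100a8 at 7.0 and 6.99 on the log2 scale on the unstimulated arrays. Their values are given beside the results they move with.

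Start-site sequences of 4 members (Cish, Socs1, Socs3 and Socs4) were present in the RefSeq table used here (GRCm38.p6), which gives 250 bases before and 50 from each start. Those with a match are shown since Socs1 and Socs3 are the members that fell and Cish the textbook STAT5 target. Capitals mark the matches, which are TTCNNNGAA for STATs and GAAA, NN, GAAA without gaps for interferon regulatory factors (IRFs). The NF-kB consensus, on which CD40 signaling converges, was also sought, and all motifs were read on both strands. Cish lies on chromosome 9 (chr9:107296655-107296684, + strand) with 2 STAT matches, from base 1 to base 9 and from base 12 to base 20 after the start. Socs3 has its match from base -154 to base -146 (chr11:117969367-117969616, - strand). Socs1 has 2 IRF matches that overlap, from base -83 to base -74 and from base -77 to base -68 (chr16:10785537-10785786, - strand).
Cish: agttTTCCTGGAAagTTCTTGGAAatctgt
Socs3: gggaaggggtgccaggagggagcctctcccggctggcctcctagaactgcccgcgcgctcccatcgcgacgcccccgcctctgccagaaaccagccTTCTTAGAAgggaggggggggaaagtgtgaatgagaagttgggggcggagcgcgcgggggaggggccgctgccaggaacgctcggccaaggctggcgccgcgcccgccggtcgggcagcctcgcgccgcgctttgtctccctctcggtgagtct
Socs1: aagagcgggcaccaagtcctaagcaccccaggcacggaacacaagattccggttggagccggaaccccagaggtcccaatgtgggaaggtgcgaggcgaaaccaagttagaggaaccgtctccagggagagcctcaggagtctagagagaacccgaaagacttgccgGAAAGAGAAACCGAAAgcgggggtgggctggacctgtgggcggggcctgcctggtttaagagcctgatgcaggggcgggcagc
Among 32851 promoters of the table, 8.30% held the STAT letters, 3.44% the IRF letters and 4.51% the NF-kB consensus, and 0.457% held 2 or more STAT matches as Cish does. The NF-kB consensus was in none of the 4 windows, and that of Socs4 held no match. A match is a description of the letters.

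Without a block, members were called against unstimulated cells only in the groups with anti-CD40. With anti-CD40, alone or with Pam2CSK4, Socs1 and Socs3 fell while Socs2 and Socs5 rose, and the other 4 members did not pass the test. Socs1 also stood at -0.58 with Pam2CSK4 and -0.57 with TLR2.CD86 on the log2 scale, which did not pass without a block. The direction of Socs5 with anti-CD40 alone turned under median normalization (-0.034, where the median of all probes was -0.58). Called at an adjusted p under 0.05 were 4 of 8 members for anti-CD40, where 16.7% of all probes tested were called, and the same 4 of 8 for TLR2.CD40, where 18.2% were. The median log2 fold change of the 8 members was -0.02 and -0.05 in these comparisons, and that of all probes -0.01 and 0.01, since members moved both ways. For Pam2CSK4 (0.136% of probes called), anti-CD86 (2.14%) and TLR2.CD86 (10.6%), 0 of 8 members were called by limma, whereas 1, 2 and 3 members had an unadjusted p under 0.05. Over all 6 groups at once, the moderated F test called Socs1, Socs2, Socs3 and Socs5 (4 of 8, against 20.1% of probes), with adjusted p-values from 0.00986 for Socs3 to 0.0240 for Socs1. The unmoderated one way test that the methods name added Cish (adjusted p = 0.0471), at 18.2% of probes, and the F test blocked by slide added Cish and Socs6, at 59.9% of probes.

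**Figure D1:**
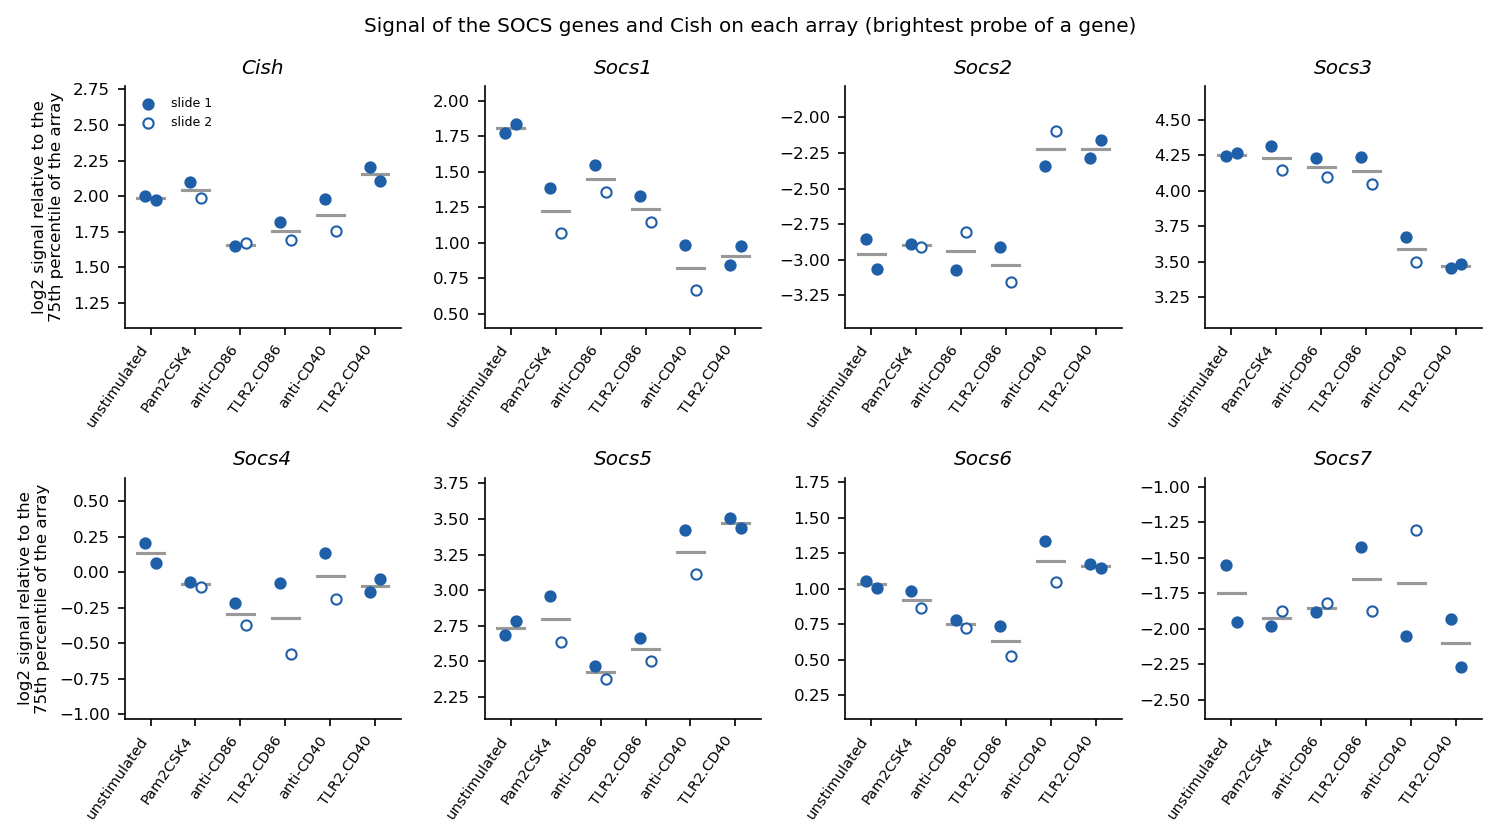
Log2 signal, with the array's 75th percentile set to 0 (vertical axis, 1.7 units in every panel) of the 8 genes in the 6 groups; filled points are arrays on slide 1, open points on slide 2, and lines are group means. Socs1 and Socs3 lie lowest, and Socs2 and Socs5 highest, on the anti-CD40 and TLR2.CD40 arrays.

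Socs1, which encodes a direct JAK inhibitor that is strongly induced by interferons, was highest in cells that had received nothing. Its log2 signal was 1.77 and 1.84 on the unstimulated arrays, 1.55 and 1.35 with anti-CD86, 1.38 and 1.07 with Pam2CSK4, and 1.33 and 1.15 with TLR2.CD86. It was lowest with anti-CD40 (0.98 and 0.67) and TLR2.CD40 (0.85 and 0.97). Every stimulated array thus lay below both unstimulated ones. Taken group by group, so did 37.7% of all probes tested with Pam2CSK4, 37.1% with anti-CD86, 36.4% with TLR2.CD86, 35.6% with anti-CD40 and 37.5% with TLR2.CD40. The share that lay below in every group at once was not counted. Socs1 fell by 0.98 on the log2 scale with anti-CD40 (SE 0.16, adjusted p = 0.0093), a 1.97-fold lower signal. With TLR2.CD40 it fell by 0.89 (SE 0.16, adjusted p = 0.00794). The log2 fold changes of -0.57 for TLR2.CD86 (adjusted p = 0.0611), -0.58 for Pam2CSK4 (adjusted p = 0.189) and -0.35 for anti-CD86 (adjusted p = 0.237) did not pass. In a fit blocked by slide, those of TLR2.CD86 and Pam2CSK4 did (-0.44, adjusted p = 0.00554, and -0.45, adjusted p = 0.0191), at 34.9% and 10.8% of probes called, and that of TLR2.CD40 remained at -0.89 (47.4%). The groups thus ran down from unstimulated over anti-CD86, TLR2.CD86, Pam2CSK4 and TLR2.CD40 to anti-CD40, where TLR2.CD86 overlapped with Pam2CSK4 and TLR2.CD40 with anti-CD40. For anti-CD40 the call was lost without unstimulated replicate 1 (adjusted p = 0.067) or 2 (adjusted p = 0.080). For TLR2.CD40 it was lost without TLR2.CD40 replicate 1 (adjusted p = 0.063) or unstimulated replicate 1 (adjusted p = 0.052) or 2 (adjusted p = 0.065).

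Socs3, the other direct JAK inhibitor and the main brake on gp130 receptors, lay close to its resting level unless CD40 was engaged. The log2 signal was 4.24 and 4.27 in unstimulated cells, 4.32 and 4.14 with Pam2CSK4, 4.23 and 4.10 with anti-CD86, and 4.23 and 4.05 with TLR2.CD86. All 4 arrays with anti-CD40 were lower, at 3.68 and 3.50 for the antibody alone and 3.46 and 3.48 for TLR2.CD40. Of all probes tested, 35.6% and 37.5% lay below both unstimulated arrays in these groups. The share below all other arrays was not counted. Socs3 fell by 0.67 with anti-CD40 (SE 0.12, adjusted p = 0.0134) and by 0.79 with TLR2.CD40 (SE 0.12, adjusted p = 0.0047), which is a 1.59-fold and a 1.72-fold lower signal. For Pam2CSK4 the 95% interval of the log2 difference from unstimulated cells ran from -0.31 to 0.26, and for TLR2.CD86 from -0.40 to 0.17. TLR2.CD40 lay below anti-CD40 alone by 0.12 (adjusted p = 0.629), or by 0.20 blocked by slide (adjusted p = 0.0402, 15% of probes called). The TLR2.CD40 call held without any single array, up to an adjusted p of 0.046. That of anti-CD40 was lost without anti-CD40 replicate 2 (adjusted p = 0.063) or unstimulated replicate 1 (adjusted p = 0.090) or 2 (adjusted p = 0.102).

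Socs2 was dim. The lowest log2 signal among probes well above background was -4.22 to -3.44 on the 12 arrays, and Socs2 lay between -3.16 and -2.81 on the 8 arrays without anti-CD40, which overlapped between all 4 groups. It was -2.34 and -2.10 with anti-CD40 and -2.28 and -2.16 with TLR2.CD40, so that these 4 arrays stood above all others. The share of probes with that pattern was not counted. Against the unstimulated arrays only, 26.6% and 38.5% of all probes were above both in these groups. Socs2 rose by 0.74 on the log2 scale in both comparisons (SE 0.15 each), with an adjusted p of 0.0189 for anti-CD40 and 0.0141 for TLR2.CD40, a 1.67-fold higher signal. The size changed with the processing. With normexp correction the log2 fold changes were 0.37 and 0.43, and with quantile normalization 0.36 (adjusted p = 0.268) and 0.65 (adjusted p = 0.0737). The anti-CD40 call was lost without anti-CD40 replicate 2 (adjusted p = 0.092) or unstimulated replicate 1 (adjusted p = 0.078) or 2 (adjusted p = 0.137), and that of TLR2.CD40 without any of the arrays compared (adjusted p = 0.051 to 0.113).

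Cish, whose product competes with STAT5 and which lies in the same branch of the family as Socs2, did not follow it. Its log2 signal was 2.00 and 1.97 in unstimulated cells, 2.10 and 1.99 with Pam2CSK4, 1.98 and 1.76 with anti-CD40, and 2.20 and 2.10 with TLR2.CD40. Lower values were measured with anti-CD86 (1.65 and 1.67) and TLR2.CD86 (1.82 and 1.69), whose 4 arrays did not overlap with the unstimulated ones. In these groups 37.1% and 36.4% of all probes lay below both unstimulated arrays. The log2 difference from unstimulated cells was -0.33 for anti-CD86 (SE 0.12, adjusted p = 0.151) and -0.23 for TLR2.CD86 (adjusted p = 0.226). It was 0.06 for Pam2CSK4, -0.12 for anti-CD40 and 0.17 for TLR2.CD40 (adjusted p = 0.820, 0.510 and 0.365). Blocked by slide, anti-CD86 passed (-0.27, adjusted p = 0.0383), in a comparison with 28.3% of probes called. TLR2.CD40 exceeded TLR2.CD86 by 0.40 (adjusted p = 0.0653), and by 0.34 blocked by slide (adjusted p = 0.0145, 34.5% of probes called).

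Socs5, which has been linked to the IL-4 and EGF receptors, was the other member that rose. It was at 2.68 and 2.78 in unstimulated cells, 2.96 and 2.64 with Pam2CSK4, 2.46 and 2.38 with anti-CD86, and 2.66 and 2.50 with TLR2.CD86. The anti-CD40 arrays read 3.42 and 3.11 and the TLR2.CD40 arrays 3.51 and 3.44, above every other array. Of all probes tested, 26.6% and 38.5% lay above both unstimulated arrays in these groups. The share above all other arrays was not counted. With TLR2.CD40 the gene rose by 0.74 on the log2 scale (SE 0.15, adjusted p = 0.0142). With anti-CD40 alone it rose by 0.54 (SE 0.15, adjusted p = 0.0497), at the edge of the threshold, and blocked by slide by 0.65 (adjusted p = 0.00182). Leaving out any array other than those of Pam2CSK4 ended the anti-CD40 call (adjusted p = 0.059 to 0.222), as did the table of log2 values that the authors deposited (0.53, adjusted p = 0.0518). The call of TLR2.CD40 was lost without any of the arrays compared (adjusted p = 0.072 to 0.10).

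Socs6, an adaptor that binds phosphorylated receptors and insulin receptor substrates, was by its brighter probe lower on the arrays with anti-CD86 than on those with anti-CD40. By its dimmer probe these arrays overlapped, with 0.403 for anti-CD86 replicate 1 and 0.396 for anti-CD40 replicate 2. The brighter probe gave 1.06 and 1.01 in unstimulated cells, 0.99 and 0.86 with Pam2CSK4, 0.78 and 0.73 with anti-CD86, 0.74 and 0.53 with TLR2.CD86, 1.34 and 1.05 with anti-CD40, and 1.18 and 1.15 with TLR2.CD40. Against unstimulated cells no difference passed, the largest being that of TLR2.CD86 (-0.40, SE 0.13, adjusted p = 0.0876). TLR2.CD40 exceeded TLR2.CD86 by 0.53 (SE 0.13, adjusted p = 0.0377), and the dimmer probe gave 0.57 (adjusted p = 0.0315). Blocked by slide, Socs6 was lower with TLR2.CD86 (-0.32, adjusted p = 0.0164) and higher with anti-CD40 (0.25, adjusted p = 0.0355, 37.1% of probes called). Of its dimmer probe, TLR2.CD86 passed as well (-0.34, adjusted p = 0.0108), but anti-CD40 did not (0.12, adjusted p = 0.225).

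Socs7 and the brighter Socs4 probe did not pass any comparison. The brighter Socs4 probe lay between -0.57 and 0.21 and was at its highest, 0.21 and 0.07, in unstimulated cells, and its adjusted p-values against unstimulated cells were 0.134 or more. Its other probe read 0.21 and 0.17 there and was lower on every stimulated array, as 35.6% to 37.7% of all probes were on both arrays of the single groups. Against unstimulated cells this probe stood at -0.61 with anti-CD86 (adjusted p = 0.130), and blocked by slide it passed (-0.46, adjusted p = 0.0432). Socs7 ranged from -2.27 to -1.30 with no order among the groups, and its standard error of 0.27 was the widest of the family. Its 95% interval for TLR2.CD40 ran from -0.97 to 0.28.

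**Figure D2:**
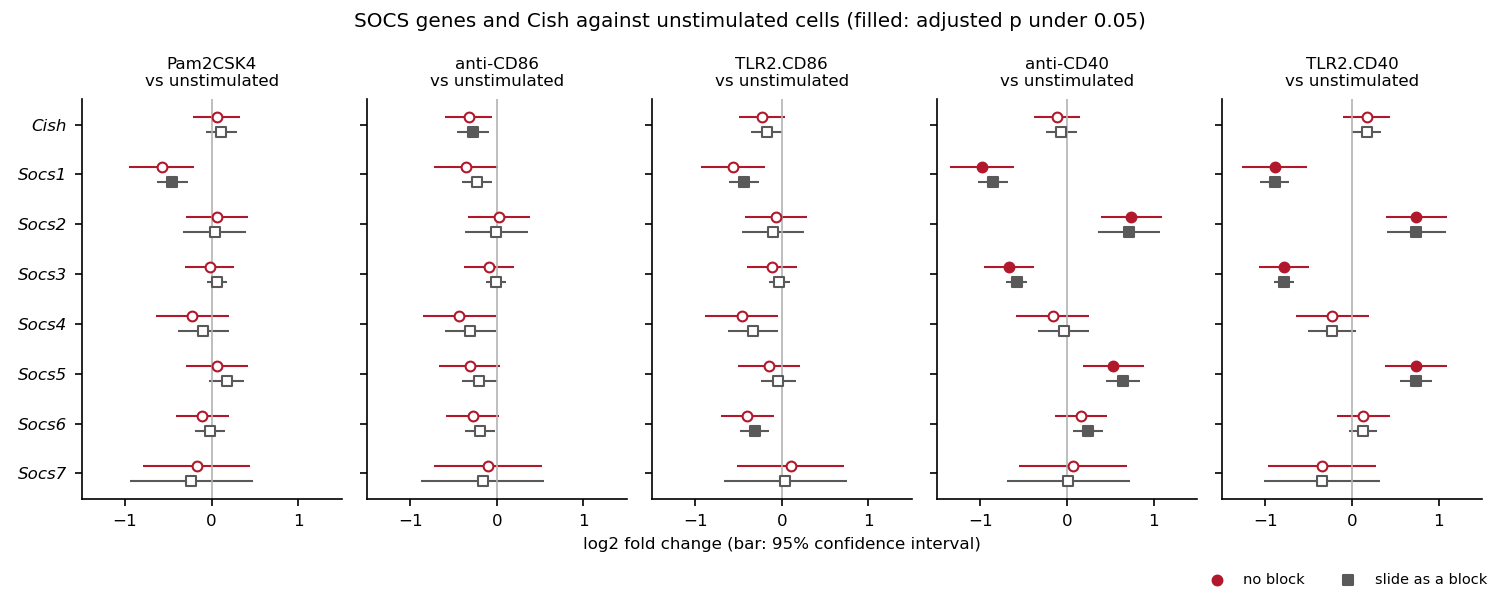
Log2 fold change (horizontal axis) of each gene against unstimulated cells, with 95% confidence intervals, from the fit without a block (circles) and the fit blocked by slide (squares); filled symbols had an adjusted p under 0.05. Filled circles appear with anti-CD40 and TLR2.CD40 for Socs1, Socs2, Socs3 and Socs5, and the block adds squares for Socs1, Socs6 and Cish; under median normalization Socs5 with anti-CD40 was -0.034.

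Whether the anti-CD86 and anti-CD40 treatments differed was tested directly between the stimulated groups, with the spread still estimated over all 12 arrays. The methods give no dose of anti-CD40, so that the receptor engaged and the dose cannot be told apart. Anti-CD40 against anti-CD86 called 4 of 8 members (10.0% of probes). Socs5 was higher by 0.85 (SE 0.15, adjusted p = 0.0136) and Socs2 by 0.72 (adjusted p = 0.0254), while Socs3 was lower by 0.58 (log2 difference -0.58, adjusted p = 0.0255) and Socs1 lower by 0.63 (log2 difference -0.63, adjusted p = 0.0479). Within slide 2, where each group had 1 array, these differences were 0.74, 0.71, -0.60 and -0.69. Socs6 differed by 0.44 (adjusted p = 0.0778), and was called with the other 4 in the fit blocked by slide (34.7% of probes). The dimmer Socs6 probe differed by 0.22 without a block (adjusted p = 0.387). In the presence of Pam2CSK4, TLR2.CD40 against TLR2.CD86 called 4 of 8 as well (12.2% of probes), which were Socs5 (0.89, adjusted p = 0.00983), Socs2 (0.81, adjusted p = 0.0138), Socs3 (-0.67, adjusted p = 0.0126) and Socs6. Socs1 was not among them (-0.33, adjusted p = 0.217), but passed blocked by slide (-0.45, adjusted p = 0.00438). Single arrays decided most of these calls. For anti-CD40 against anti-CD86, Socs5 was lost without anti-CD86 replicate 1 (adjusted p = 0.071) or 2 (adjusted p = 0.081), and Socs2 and Socs3 without these, anti-CD40 replicate 2 or either TLR2.CD40 array (adjusted p = 0.050 to 0.161), Socs3 also without either unstimulated array (adjusted p = 0.059). Socs1 was lost without any array other than anti-CD40 replicate 1, up to an adjusted p of 0.247. For TLR2.CD40 against TLR2.CD86, Socs2, Socs3 and Socs5 were lost without either TLR2.CD40 array (adjusted p = 0.064 to 0.103). Socs2 and Socs5 were also lost without TLR2.CD86 replicate 2 (adjusted p = 0.081 and 0.060), Socs3 without TLR2.CD86 replicate 1 (adjusted p = 0.060), and Socs6 without any array other than those of anti-CD40, up to an adjusted p of 0.182.

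Against Pam2CSK4 alone, TLR2.CD40 called 3 of 8 members (9.91% of probes), Socs3 at -0.76 (adjusted p = 0.00899), Socs2 at 0.68 (adjusted p = 0.0314) and Socs5 at 0.67 (adjusted p = 0.0317), on the log2 scale. Anti-CD40 against Pam2CSK4 called only Socs3 of the 8 (-0.64, adjusted p = 0.0304, 4.45% of probes), with Socs2 just outside (0.68, adjusted p = 0.0504) and Socs5 at 0.47 (adjusted p = 0.139). Blocked by slide, this count was 5 of 8 (Socs1, Socs2, Socs3, Socs5 and Socs6), at 28% of probes. The 3 calls of TLR2.CD40 against Pam2CSK4 were lost without either TLR2.CD40 array (adjusted p = 0.070 to 0.188), Socs2 and Socs5 also without Pam2CSK4 replicate 2 (adjusted p = 0.144 and 0.184) or an unstimulated array (adjusted p = 0.056 and 0.065). Socs2 and Socs3 were lost without Pam2CSK4 replicate 1 (adjusted p = 0.103 and 0.053), and Socs5 without either anti-CD86 array (adjusted p = 0.055). The call of Socs3 for anti-CD40 against Pam2CSK4 was lost without anti-CD40 replicate 2 or any array of Pam2CSK4, unstimulated cells, anti-CD86 or TLR2.CD40 (adjusted p = 0.055 to 0.141). Without a block, no member passed when Pam2CSK4 was added to an antibody. Limma called 0 of 8 for TLR2.CD40 against anti-CD40 (2.9% of probes, 1 member at an unadjusted p under 0.05). Blocked by slide it called Socs3, lower with TLR2.CD40 (-0.20, adjusted p = 0.0402, 15% of probes). Without a block this difference was -0.12, and under median normalization, where the median of all probes was 0.50, it was 0.34 (adjusted p = 0.634). It also called 0 of 8 for TLR2.CD86 against anti-CD86 (0.225%, no member at an unadjusted p under 0.05) and for TLR2.CD86 against Pam2CSK4 (0.0633%, 1 member). Blocked by slide the latter called Socs6 (10.7% of probes). The 2 single signals, anti-CD86 against Pam2CSK4, also called 0 of 8 (0.82%, 2 members at an unadjusted p under 0.05), and blocked by slide Cish and Socs5, both lower with anti-CD86 (18.9%). The interaction, which is the effect of both signals minus the sum of the single effects, was not called for any member, with CD86 (0.019% of probes, no member at an unadjusted p under 0.05) or CD40 (1.15%, 1 member), nor was the difference of the interactions (0.826%, no member). The largest one with CD40 was that of Socs1 (0.66, SE 0.23, adjusted p = 0.200), whose effect with both signals was smaller than the sum of the single ones. Blocked by slide it was 0.41 (adjusted p = 0.0697, 8.41% of probes called).

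**Figure D3:**
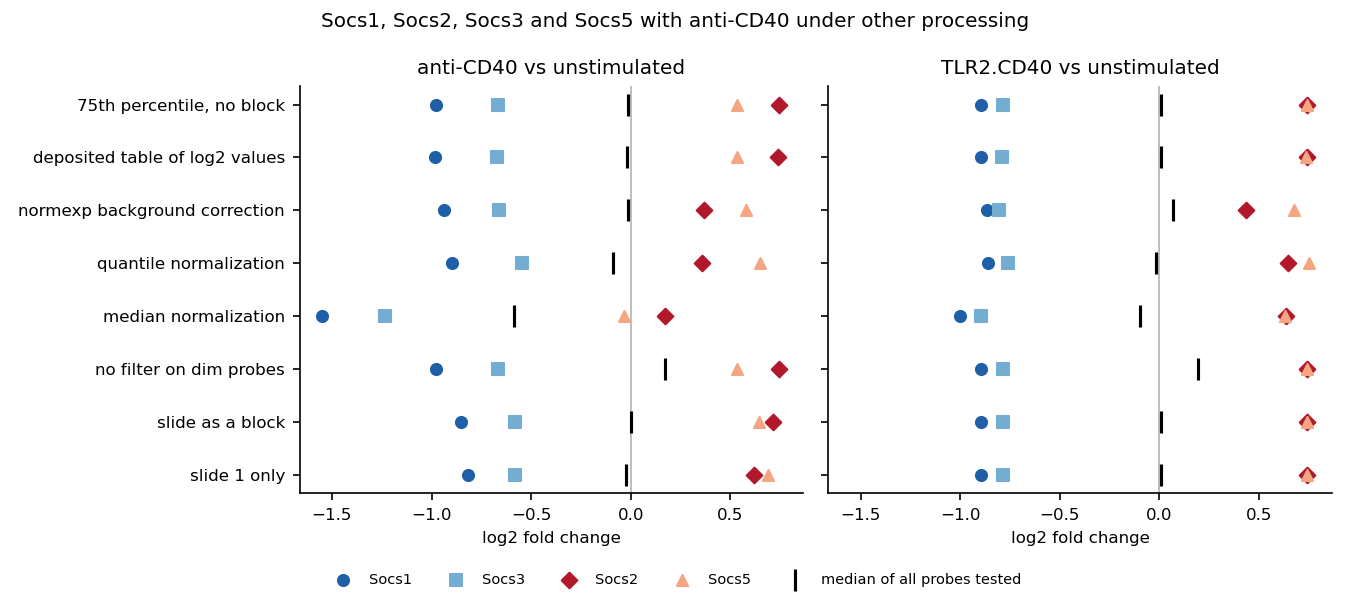
Log2 fold change (horizontal axis) of Socs1, Socs2, Socs3 and Socs5 against unstimulated cells for anti-CD40 and TLR2.CD40, under each processing (rows); the black bar is the median of all probes tested. In every row Socs1 and Socs3 lie below that median and Socs2 and Socs5 above it, while median normalization moves the whole anti-CD40 comparison down, to a median of -0.58 and a Socs5 value of -0.034.

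Of the JAKs and STATs, on which the SOCS proteins act, 4 of the 10 followed here passed with each CD40 group. All 10 were tested, and limma called 3 higher and 1 lower with anti-CD40 (6.15% of probes higher, 10.6% lower), and 3 higher and 1 lower with TLR2.CD40 (8.52% higher, 9.65% lower). Stat5a, the partner at receptors with which CIS competes, went from 2.89 and 2.87 in unstimulated cells to 4.11 and 3.63 with anti-CD40 and 4.01 and 4.05 with TLR2.CD40. The log2 fold changes were 0.99 (adjusted p = 0.0154) and 1.15 (adjusted p = 0.00578). Stat6, which carries the IL-4 signal, rose by 0.97 and 0.95 (adjusted p = 0.0078 and 0.00504), and its 2 dimmer probes rose too (0.96 to 1.13). Stat4 rose by 0.82 and 1.02 (adjusted p = 0.0404 and 0.0160), and also by 0.84 with TLR2.CD86 (adjusted p = 0.0479).

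Stat2, which acts in interferon signaling, fell by 0.68 with anti-CD40 (adjusted p = 0.0257) and by 0.56 with TLR2.CD40 (adjusted p = 0.0428). Without a block Tyk2 was the only kinase that passed, higher with TLR2.CD86 by 0.72 (adjusted p = 0.0303), where 2 of 10 were called higher and 0 lower (3.39% and 7.24% of probes). Jak1, Jak2 and Jak3 lay between -0.50 and 0.44 in all 5 comparisons, with adjusted p-values of 0.201 or more, and Stat3 and Stat5b did not pass either (adjusted p = 0.120 or more). For Stat5b a dimmer probe was called with TLR2.CD40 (0.52, adjusted p = 0.036) and TLR2.CD86 (0.66, adjusted p = 0.028). Pam2CSK4 and anti-CD86 alone called 0 of 10. Blocked by slide more passed: 4 of 10 with Pam2CSK4, 3 with anti-CD86, 6 with TLR2.CD86, 7 with anti-CD40 and 7 with TLR2.CD40, in comparisons with 10.8%, 28.3%, 34.9%, 37.1% and 47.4% of probes called. Tyk2 and Stat5a then rose in all 5 comparisons, Jak2 rose with TLR2.CD40 and Jak3 fell with anti-CD40. Stat3 fell with Pam2CSK4, TLR2.CD86 and anti-CD40 and rose with TLR2.CD40. Of the 10 calls on JAKs and STATs, 8 were lost without unstimulated replicate 1 and 8 without unstimulated replicate 2, and 10 under median normalization.

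Larger changes were found among the receptors and ligands that use JAKs. Of 31 receptors tested, 4 rose and 4 fell with anti-CD40, 5 rose and 1 fell with TLR2.CD40, 3 rose and 5 fell with TLR2.CD86, 1 rose with Pam2CSK4 (0.0981% of probes higher, 0.038% lower) and 0 passed with anti-CD86. Il15ra, the alpha chain of the IL-15 receptor, rose by 1.91 and 1.98 on the log2 scale with anti-CD40 and TLR2.CD40 (adjusted p = 0.00434 and 0.00188). Il21r, the receptor of a T cell helper cytokine, rose by 1.70 and 1.42 (adjusted p = 0.00217 and 0.00209), and by 0.89 with TLR2.CD86 (adjusted p = 0.0268). Il2ra, the alpha chain of the IL-2 receptor, rose by 3.63 with anti-CD40 and 4.22 with TLR2.CD40 (adjusted p = 2.85e-05 and 9.89e-07). Il2ra also rose with Pam2CSK4 (1.77, adjusted p = 0.00416) and TLR2.CD86 (1.74, adjusted p = 0.00205). Il2rg, the chain that these receptors share, was higher by 0.81 with anti-CD40 (adjusted p = 0.0211) and by 0.68 with TLR2.CD86 (adjusted p = 0.0471). Called lower in at least 2 comparisons were Crlf3, an orphan cytokine receptor-like gene, and Epor. Crlf3 changed by -1.08 with anti-CD40 and -1.18 with TLR2.CD40 (adjusted p = 0.0032 and 0.00116). Epor fell by 0.72 with anti-CD40 (adjusted p = 0.0295) and by 0.82 with TLR2.CD86 (adjusted p = 0.0277). Also lower were Il12rb1 and Il10ra with anti-CD40 and Csf2rb2, Ifngr1 and Lifr with TLR2.CD86, while Il4ra and Il12rb2 rose with TLR2.CD40. Blocked by slide, 9 of the 31 passed with Pam2CSK4, 12 with anti-CD86, 17 with TLR2.CD86, 16 with anti-CD40 and 18 with TLR2.CD40. In that order, 10.8%, 28.3%, 34.9%, 37.1% and 47.4% of all probes were called with this block. The shares without it were 0.136%, 2.14%, 10.6%, 16.7% and 18.2%.

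Of 18 ligand genes tested, Ebi3, a subunit of IL-27, rose with anti-CD40 (1.53, adjusted p = 0.00188) and TLR2.CD40 (2.12, adjusted p = 0.000211). Il12b, the subunit that IL-12 and IL-23 share, followed Pam2CSK4 instead. It rose with Pam2CSK4 (1.78, adjusted p = 0.00494), TLR2.CD86 (1.13, adjusted p = 0.00842) and TLR2.CD40 (1.5, adjusted p = 0.000456), and fell by 0.74 with anti-CD40 alone (adjusted p = 0.0124). Clcf1, a gp130 cytokine, rose with anti-CD86 (1.27, adjusted p = 0.0262) and TLR2.CD86 (1.37, adjusted p = 0.0103), and with TLR2.CD40 (0.67, adjusted p = 0.0331). In all, 2 ligands rose and 2 fell with anti-CD40, 3 rose with TLR2.CD40, 2 rose and 1 fell with TLR2.CD86, 1 rose with Pam2CSK4, and 1 rose and 2 fell with anti-CD86 (0.946% and 1.19% of probes). The others in these counts were Il11, which rose, and Il15, which fell, with anti-CD40, Il4, which fell with TLR2.CD86, and Ifnb1 and Il6, which fell with anti-CD86. Blocked by slide, 5, 11, 9, 8 and 7 of the 18 passed with Pam2CSK4, anti-CD86, TLR2.CD86, anti-CD40 and TLR2.CD40. In that order, 10.8%, 28.3%, 34.9%, 37.1% and 47.4% of all probes were called with this block. The shares without it were 0.136%, 2.14%, 10.6%, 16.7% and 18.2%.

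**Figure D4:**
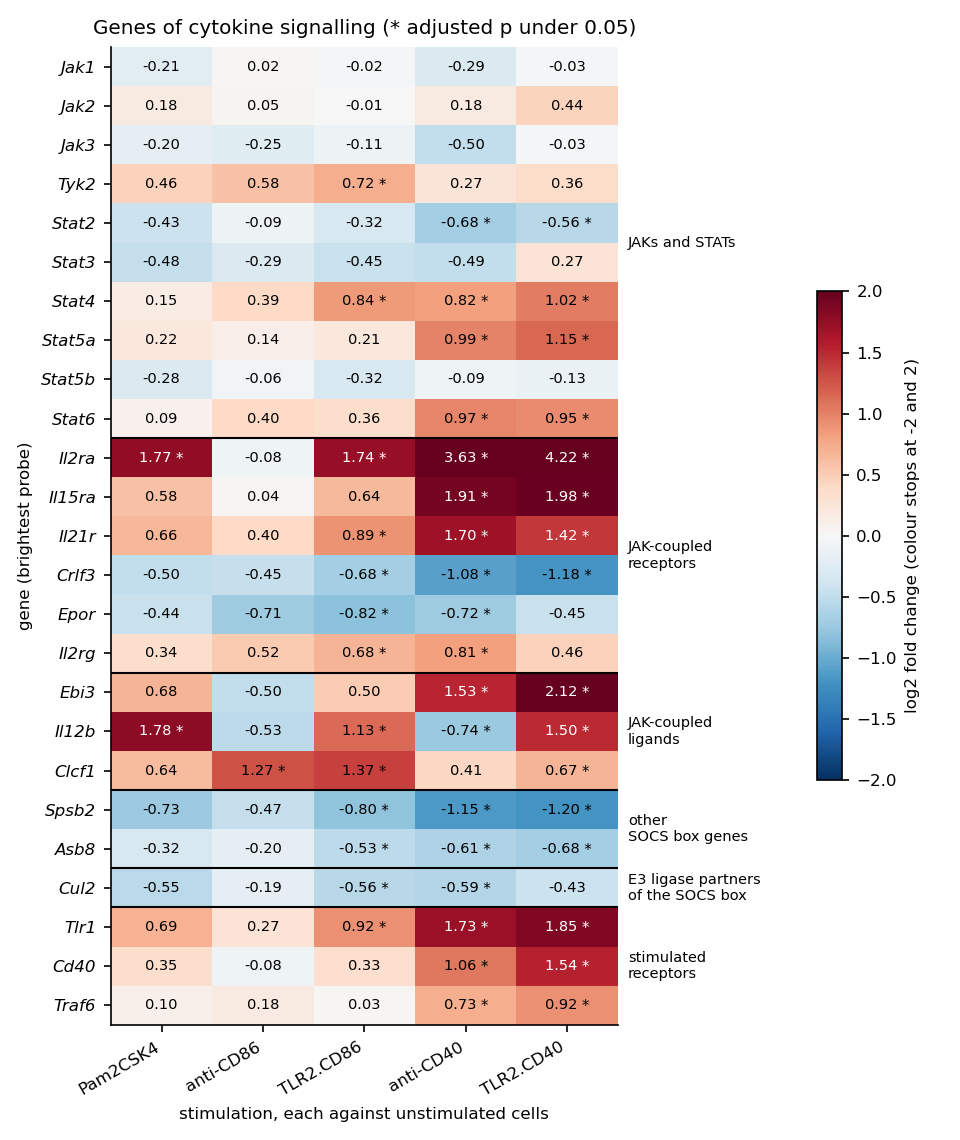
Log2 fold change (colour and number) of the 10 JAKs and STATs followed and of genes of related lists that were called in at least 2 of the 5 comparisons with unstimulated cells; rows are genes, columns stimulations, and * marks an adjusted p under 0.05. Stat5a, Stat6 and Stat4 rise with both anti-CD40 groups, and Il2ra has the largest rise of the genes shown there (3.63 and 4.22).

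A list of E3 ligase genes gave 6 that were tested, elongins, RING proteins and the cullins Cul5 and Cul2. Which of them serve the SOCS proteins was not tested. Without a block, Cul2 fell by 0.59 with anti-CD40 (adjusted p = 0.0269) and by 0.56 with TLR2.CD86 (adjusted p = 0.0420). Rnf7 fell with TLR2.CD86, and 0 passed with the other stimulations. With the slide as a block, 2, 2, 3, 5 and 3 of the 6 passed with Pam2CSK4, anti-CD86, TLR2.CD86, anti-CD40 and TLR2.CD40. Cul5 was among those with anti-CD40, where it rose. In that order, 10.8%, 28.3%, 34.9%, 37.1% and 47.4% of all probes were called with the block. The shares without it were 0.136%, 2.14%, 10.6%, 16.7% and 18.2%. Both sets of shares apply to the lists that follow in this paragraph. Among 13 other genes with a SOCS box that were tested, of 26 on the array, Spsb2 fell by 1.15 with anti-CD40, 1.20 with TLR2.CD40 and 0.80 with TLR2.CD86 (adjusted p = 0.00823, 0.00417 and 0.0348). Spsb2 encodes an adaptor for inducible nitric oxide synthase. Asb8 fell by 0.61, 0.68 and 0.53 in the same comparisons (adjusted p = 0.0107, 0.00443 and 0.0252). With anti-CD40, Asb1 fell and Wsb1 rose as well. In the same order of stimulations, 2, 2, 4, 6 and 6 of the 13 passed blocked by slide. Of the 13 other inhibitors of the pathway, phosphatases, PIAS proteins and CBL ligases included, limma called 1 in all without a block, Usp18 with TLR2.CD40, and 2, 5, 8, 6 and 8 blocked by slide. The receptors that were stimulated and their adaptors moved too: of 8 tested, Cd40 rose by 1.06 and 1.54 with anti-CD40 and TLR2.CD40 (adjusted p = 0.0261 and 0.00478), and Tlr1, a partner of TLR-2, by 1.73 and 1.85 (adjusted p = 0.0011 and 0.000287). Traf6, an adaptor of both receptors, rose by 0.73 and 0.92 (adjusted p = 0.00724 and 0.00164), and Tlr1 alone of the 8 rose with TLR2.CD86 (0.92, adjusted p = 0.0157). Blocked by slide, 3, 5, 4, 6 and 5 of the 8 passed.

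Likeness was measured over the 12 arrays among 17704 probes with a gene symbol that were well above background throughout, as a description with arrays that share groups and slides. Socs1 ran most closely with Spsb2 (Pearson r = 0.988), Slc25a44 (0.987) and Pyhin1 (0.986). Socs3 was closest to Zfp831 (0.987), Trim25 (0.986) and Camkk1 (0.986), and Socs5 to Tank (0.989), Mfhas1 (0.988) and Gm9115 (0.988). For Socs2 the nearest were E430028B21Rik (0.964), Mia1 (0.956) and Bxdc2 (0.951). Within the family, r was 0.83 between Socs1 and Socs3 and 0.84 between Socs2 and Socs5, and -0.92 between Socs2 and Socs3. Cish had an r of 0.40 with Socs2, 0.72 with Socs5 and 0.71 with Socs6.

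Markers of other cells moved in the same comparisons. In bulk RNA, fewer cells of a type and less RNA per cell cannot be told apart. Of 14 myeloid markers, 4 fell with anti-CD40, 5 with TLR2.CD40, 5 with TLR2.CD86, 1 with anti-CD86 and 0 with Pam2CSK4, and none rose without a block. In the same order, 10.6%, 9.65%, 7.24%, 1.19% and 0.038% of all probes tested were called lower. The markers that fell are named next. These were Mpo, Emr1 and S100a8 in the 3 groups with most calls, Ly6g with anti-CD40, Itgam and Csf1r with TLR2.CD40 and TLR2.CD86, and S100a8 alone with anti-CD86. Mpo fell by 0.91 with anti-CD40, by 0.83 with TLR2.CD40 and by 1.35 with TLR2.CD86 (adjusted p = 0.0221, 0.0243 and 0.0122). Emr1 fell by 0.68, 0.77 and 0.89 (adjusted p = 0.0210, 0.00966 and 0.0157), and S100a8 by 0.67, 0.46 and 0.58 (adjusted p = 0.00629, 0.0153 and 0.0164). The summed myeloid signal, in multiples of the 75th percentile, was 698 to 755 in unstimulated cells, 583 to 676 with Pam2CSK4, 543 to 605 with anti-CD86, 537 to 622 with TLR2.CD86, 541 to 640 with anti-CD40 and 698 to 774 with TLR2.CD40. These sums hold S100a9, which was saturated on 12 arrays, and Lyzs, saturated on 11. Over the 12 markers with no saturated array, summed after the data were seen, the signal was 326 to 328 in unstimulated cells, 229 to 255 with Pam2CSK4, 208 to 230 with anti-CD86, 178 to 200 with TLR2.CD86, 179 to 215 with anti-CD40 and 219 to 227 with TLR2.CD40. It was thus lower in every stimulated group. Blocked by slide, 4 markers fell and Cd14 rose with Pam2CSK4, 6 fell with anti-CD86, 5 fell and Lyz2 rose with TLR2.CD86, 6 fell with anti-CD40, and 6 fell while S100a9 and Lyzs rose with TLR2.CD40. In these blocked comparisons 10.8%, 28.3%, 34.9%, 37.1% and 47.4% of all probes were called in either direction.

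Of 10 T cell markers, 1 fell in each of TLR2.CD86 (Thy1), anti-CD40 and TLR2.CD40 (Cd2 in both), and their sum was 38.8 to 39.4 in unstimulated cells against 24.7 to 34.9 in the stimulated groups. Of all probes, 7.24%, 10.6% and 9.65% were called lower with TLR2.CD86, anti-CD40 and TLR2.CD40, so that 1 of 10 lay near that share. Of 8 NK cell markers, 2 fell with TLR2.CD86 and anti-CD40 (Gzma and Klrb1c) and 1 with TLR2.CD40 (Klrb1c), with sums of 12.5 to 12.6 in unstimulated cells and 8.68 to 11.6 in the stimulated groups. Of 3 red cell markers, 0 passed. Of the 9 B cell markers, Fcer2a rose with anti-CD40 and TLR2.CD40 (1.21 and 1.49, adjusted p = 0.00542 and 0.00125) and Cr2 fell with anti-CD40. Without a block 6.15% and 8.52% of all probes were called higher with anti-CD40 and TLR2.CD40. Blocked by slide, with Pam2CSK4, anti-CD86, TLR2.CD86, anti-CD40 and TLR2.CD40 in order, 0, 3, 4, 3 and 4 of the T cell markers passed. So did 1, 2, 3, 2 and 3 of the NK cell markers, 0, 1, 3, 0 and 1 of the red cell markers and 3, 5, 7, 5 and 4 of the B cell markers. The shares of all probes called in this fit were 10.8%, 28.3%, 34.9%, 37.1% and 47.4%. The part of other cells in the changes of Socs1, Socs2, Socs3 and Socs5 was not tested.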

How the data were processed

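The authors hybridised Cy3-labelled RNA to a custom array annotated to mm9 and read it with Feature Extraction 10.5.1.1. They deposited the processed signal intensity per spot, corrected for background within each array, and a table of log2 values that equals log2 intensity minus 1 constant per array. Control spots and outlier spots (5 to 35 per array) were left out, saturated spots were kept, and spots of a probe were averaged. A probe was tested if at least 1 group had it well above background on each of its arrays, except 68 with a value missing. Tests used limma 3.58.1 in R 4.3.3 with a coefficient per group over 12 arrays, no block, and Benjamini-Hochberg adjustment over 31596 probes. Alternatives were normexp correction, median and quantile normalization, the deposited table, other filters on dim probes, slide and replicate blocks, slide 1 alone and leaving out each array, over 16 comparisons. The code was tested on simulated data. The number of arrays limits the precision.

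The members and lists were chosen with earlier results of these data known. From the lists a gene is named if it was called in at least 2 of the 5 comparisons with unstimulated cells, up to 6 a list by the largest change, with every JAK and STAT followed, and 3 genes were taken as most like each member called. List genes called in 1 comparison only were named after their values were seen. All 10 accessions matched the RefSeq symbol. An isotype control was not analysed here, and some genes of the lists are not reported here. Figures were made with Python 3.11.15 and matplotlib 3.10.9.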

Additional observations from a re-analysis of the deposited data

How the results depend on the processing

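Of 20 calls on a member in a comparison, 20 held under normexp correction, with probes well above background on all arrays, with the slide as a block and with the replicate block. The deposited table ended 1, quantile normalization 4, slide 1 alone 5 and no filter on dim probes 17. Median normalization ended 19 and turned the sign of 1, and the shift of all probes there is -0.58 for anti-CD40, -0.32 for TLR2.CD86, -0.26 for Pam2CSK4, -0.19 for anti-CD86 and -0.10 for TLR2.CD40. Of 40 differences of members from unstimulated cells, 8 changed sign under it: Socs5 (-0.034), Socs6 (-0.41) and Socs7 with anti-CD40, Cish (-0.13), Socs2 and Socs5 with Pam2CSK4, Socs2 with anti-CD86 and Socs7 with TLR2.CD86. All 8 lay above the shift in their comparison. Socs3 in TLR2.CD40 against anti-CD40 turned to 0.34, below the shift of 0.50. These positions follow from the processing, which subtracts another constant per array and so moves each gene and the shift alike. The median intensity, which median normalization sets equal, was 17.3 to 23.6 on slide 1 and 30.9 to 51.2 on slide 2. The lowest intensity well above background was 19.5 to 26.7 on slide 1 and 19.9 to 32.9 on slide 2. The part of such dim spots in the lost calls was not tested, nor was the cause of the other changes.

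The share of all probes called is given here only for the fit without a block and the slide block. Counts under the other settings are thus not set against it. Members called changed by more than 1.5 times as follows. Median normalization called 0 for anti-CD40 and for TLR2.CD40 against unstimulated cells (4 each), 0 for TLR2.CD40 against Pam2CSK4 (3) and against TLR2.CD86 (4), and 0 for anti-CD40 against anti-CD86 (4) and Pam2CSK4 (1). With no filter the counts were the same but for 1 with anti-CD40 and 2 with TLR2.CD40. For TLR2.CD86 against unstimulated cells (0), quantile normalization called 2, normexp 1, the stricter filter 1, slide 1 alone 1, the slide block 2 and the replicate block 2. For anti-CD40 against Pam2CSK4 (1) they called 2, 2, 2, 0, 5 and 2. The slide block also called 1 for Pam2CSK4, 1 for anti-CD86, 1 for TLR2.CD40 against anti-CD40, 1 for TLR2.CD86 against Pam2CSK4 and 2 for anti-CD86 against Pam2CSK4, each 0 without it.

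Leaving out each array in turn gave 0 to 4 members for anti-CD40, 1 to 4 for TLR2.CD40 and 0 to 1 for TLR2.CD86 against unstimulated cells. It gave 0 to 3 for TLR2.CD40 against Pam2CSK4, 0 to 4 for anti-CD40 against anti-CD86, 0 to 5 for TLR2.CD40 against TLR2.CD86, 0 to 1 for anti-CD40 against Pam2CSK4, and 0 to 0 otherwise. Of the 20 calls, 13 were lost without unstimulated replicate 1, 13 without unstimulated replicate 2, 15 without TLR2.CD40 replicate 1 and 14 without TLR2.CD40 replicate 2.

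The replicate numbers were not taken to pair samples. Deviations of same-numbered arrays from their group means correlated at 0.54 to 0.67 between groups with replicate 2 on slide 2, and at -0.11 to 0.07 between the other groups. The replicate block called the dimmer Socs4 probe with anti-CD86 (-0.61, adjusted p = 0.037) and TLR2.CD86 (-0.52, adjusted p = 0.0368). It gave 4 members for anti-CD40, 4 for TLR2.CD40, 3 for TLR2.CD40 against Pam2CSK4, and 5 for TLR2.CD40 against TLR2.CD86 and for anti-CD40 against anti-CD86. The share of all probes called with this block is not given here. Of 73 calls on named genes of the other lists, an alternative chosen after seeing the data, 73 held with the slide block, 66 with quantile and 5 with median normalization, 28 with no filter and 22 to 70 without single arrays.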
